A study of Homo sapiens with 60 samples.

Results

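The 8 genes described here are the aryl hydrocarbon receptor AHR, its DNA-binding partner ARNT, and 6 genes that the receptor switches on when a ligand binds it, namely CYP1A1, CYP1A2, CYP1B1, ALDH3A1, TIPARP and AHRR. They were taken by symbol from a table of 60675 genes, in which all 8 were found. The study measured RNA in HepG2, a human hepatocellular carcinoma line, after 24 h with water extracts of medicinal herbs. Of the 7 extracts, 3 were herbal formulas (Samul-tang, Sagunja-tang and their combination, Palmul-tang). The 4 others came from a single herb each, namely Astragali Radix, Cinnamomi Cortex, Cnidii Rhizoma or Rehmanniae Radix Preparata. Cells received 20, 100 or 500 µg/mL of an extract, with 3 libraries per dose except for Palmul-tang, which had 1, and 3 vehicle libraries received DMSO, in 60 libraries in all. The labels give 0.1% DMSO and the design text gives 2%, so the vehicle concentration is uncertain. By general knowledge, Palmul-tang holds the herbs of both other formulas, and Samul-tang contains Cnidii and Rehmanniae. A dose is the mass of the whole extract, so a formula and its herbs at the same dose do not deliver the same amount of a herb.

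The aryl hydrocarbon receptor is a transcription factor that waits in the cytoplasm bound to a chaperone complex. Planar aromatic ligands, many of them from plants, smoke or tryptophan breakdown, release it to the nucleus, where it pairs with ARNT and binds DNA at a short core sequence. CYP1A1, CYP1A2 and CYP1B1 are cytochrome P450 enzymes that oxidise such aromatic compounds, ALDH3A1 oxidises aldehydes, and TIPARP and AHRR feed back to restrain the receptor. In liver cells CYP1A1 is low at rest and is the classical reporter of receptor activation.

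The libraries held between 16484546 and 34412234 counts (median 25507583). All 10 hepatocyte markers (ALB, AFP, HNF4A and others) were expressed, with a summed level of 52400 to 62200 CPM (counts-per-million, a gene's counts relative to the library's total) per library. The 12 markers of leukocytes, endothelium and fibroblasts summed to 1200 to 3020 CPM, 7 of them had a median under 1 CPM and KDR was at 0 in every library, while LYZ, CD68, ACTA2 and PDGFRB were expressed. Of the 8 genes, 6 passed the filter on low counts and were tested among 16167 genes, and CYP1A2 and CYP1B1 did not pass. The labels do not say whether replicates were separate cultures, so p-values measure the spread between these libraries, which may be technical. Every title, vehicle included, names the same batch, B. The first number of the sample code differs between extracts and is called the set here (5 for Cnidii and Rehmanniae, 6 for Cinnamomi and Astragali, 7 for Sagunja-tang and Samul-tang, 8 for Palmul-tang). The labels do not say what this number stands for, and the vehicle codes hold none. A difference from vehicle and a difference that goes with this number cannot be told apart, while a comparison of doses of 1 extract stays within its set.

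The receptor core, GCGTG on either strand (CACGC read from the other), is printed in capitals below because it is the DNA to which the receptor and ARNT bind. The windows run from 250 bases before to 50 after a gene's start in RefSeq (GRCh38.p14), and 6 of the 8 genes have an entry in that table (not CYP1B1 and ALDH3A1). The same 5 letters also occur in the element bound by hypoxia-inducible factors, which share ARNT. In the 250 bases before the start, 32.2% of 35116 windows held the core and 4.52% held the longer TNGCGTG, so a match is common and is a description only. CYP1A1 held 1 core, which begins 57 bases before the RefSeq start and lies inside the GENCODE 29 gene (chr15:74719542-74725610, minus strand). TIPARP held 2 cores before the first of its 3 listed starts. AHRR held cores before both of its starts, and the 1 before its first start is the TNGCGTG form. No core was found in the 250 bases before the starts of CYP1A2, AHR and ARNT, nor before the other TIPARP starts. The 50 bases after a start were not searched, nor was any base more than 250 before it, so cores further upstream are not covered. A second core before the other AHRR start lies at the edge of its window and is not printed. CYP1A1 and CYP1A2 are divergent neighbours on chromosome 15 with 23233 bases between them. The stretches just upstream of both genes are printed last, 168 bases for CYP1A1 and 249 bases for CYP1A2. Neither stretch holds a core. That of CYP1A1 stops at the GENCODE 29 gene, so the core inside the gene falls outside it.
CYP1A1, chr15:74725569-74725597, minus strand: ccagggaaggagGCGTGgccacacgtaca
TIPARP, chr3:156674370-156674398, plus strand: cgcgagaaaggaCACGCcccctcgcggga
TIPARP, chr3:156674436-156674464, plus strand: cgaacgaacgcgCACGCgcgcgcaggggg
AHRR, chr5:321672-321700, plus strand: ggcgggcggctcGCGTGccggggtggggc
AHRR, chr5:322556-322584, plus strand: gcagaagggtggGCGTGtgcgcgcgttct
CYP1A1 upstream, chr15:74725611-74725778, minus strand: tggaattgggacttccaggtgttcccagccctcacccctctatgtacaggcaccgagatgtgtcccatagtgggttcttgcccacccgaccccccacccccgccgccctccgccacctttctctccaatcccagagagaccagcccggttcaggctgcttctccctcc
CYP1A2 upstream, chr15:74748595-74748843, plus strand: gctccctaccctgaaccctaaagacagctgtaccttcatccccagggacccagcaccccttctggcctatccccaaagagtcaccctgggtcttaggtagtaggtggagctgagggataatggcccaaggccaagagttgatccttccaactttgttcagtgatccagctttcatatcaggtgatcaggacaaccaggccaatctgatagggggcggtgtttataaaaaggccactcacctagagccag

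CYP1A1 rose with dose under 4 of the 6 replicated extracts, most with the formulas Samul-tang and Sagunja-tang, and its level at the top dose of Samul-tang was the highest of all groups. Over all 60 libraries it ranged between 7.56 and 83.3 CPM, and the highest group mean was 9.25 times the lowest. In bulk RNA, more cells expressing the gene and more RNA per cell cannot be told apart. Starting at 12.7, 11.1 and 12.6 CPM in the vehicle libraries, Samul-tang libraries held 14.2, 17.9 and 14.1 CPM at 20 µg/mL, 29.9, 28.8 and 28.5 CPM at 100 µg/mL and 81.1, 77.7 and 83.3 CPM at 500 µg/mL. No value at any Samul-tang dose overlapped those of another dose or of vehicle. Sagunja-tang libraries held 11.4, 11.2 and 11.9 CPM at 20 µg/mL, 14.5, 15.7 and 14.7 CPM at 100 µg/mL and 51.5, 62.8 and 55.0 CPM at 500 µg/mL. Here the lowest dose overlapped vehicle, and most of the increase lay between 100 and 500 µg/mL, where the mean was 3.79 times as high, against 1.3 times between 20 and 100 µg/mL. Samul-tang rose in both steps, 1.89 times between 20 and 100 µg/mL and 2.77 times between 100 and 500 µg/mL.

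**Figure D1:**
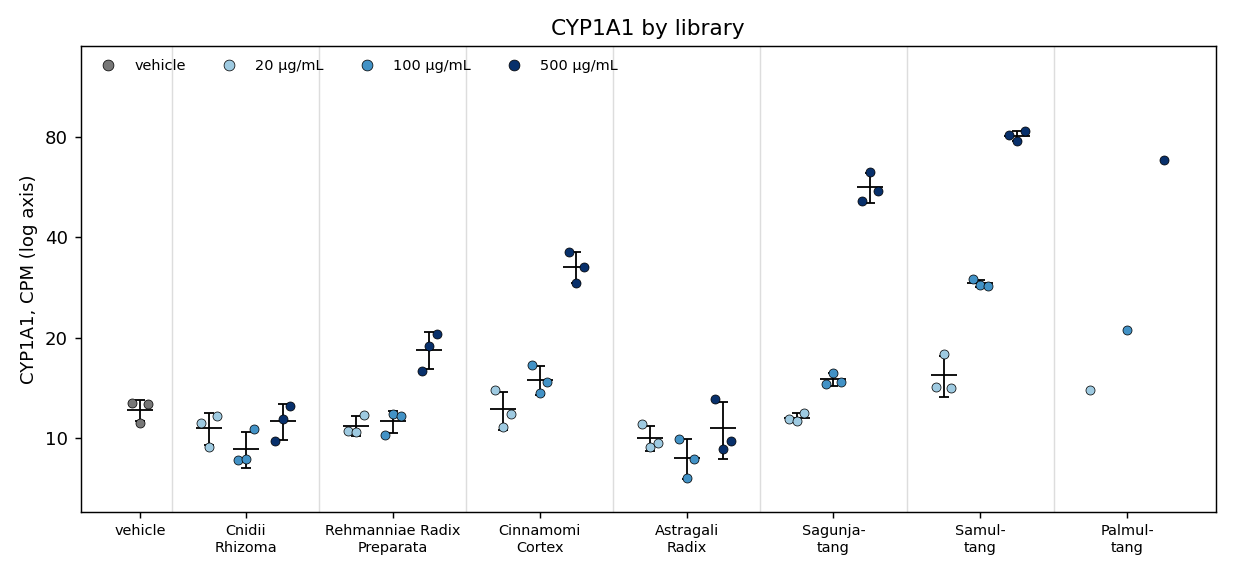
CYP1A1 level in every library in CPM on a log axis, by extract and dose in µg/mL with vehicle on the left; points are libraries, lines are means and bars are SD (n = 3, and n = 1 without a bar for Palmul-tang). Samul-tang at 500 µg/mL averaged 80.7 CPM and vehicle 12.1 CPM.

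Palmul-tang, which joins those 2 formulas, had 1 library per dose and no test. Its CYP1A1 level was 13.9 CPM at 20 µg/mL (95% exact Poisson interval 12.6 to 15.3), 21.1 CPM at 100 µg/mL (19.3 to 23.0) and 68.0 CPM at 500 µg/mL (65.1 to 70.9), where the intervals cover counting error only. The 500 µg/mL value was 5.61 times the vehicle mean and lay between the values of Sagunja-tang and those of Samul-tang at the same dose, overlapping neither.

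Among the single herbs, CYP1A1 rose with dose under Cinnamomi and Rehmanniae, and its trends under Cnidii and Astragali missed the threshold. Cinnamomi libraries held 13.9, 10.8 and 11.8 CPM at 20 µg/mL, 16.5, 13.6 and 14.7 CPM at 100 µg/mL and 36.1, 29.2 and 32.6 CPM at 500 µg/mL. Rehmanniae libraries held 10.5, 10.4 and 11.7 CPM at 20 µg/mL, 10.2, 11.8 and 11.6 CPM at 100 µg/mL and 15.9, 18.8 and 20.5 CPM at 500 µg/mL. In both herbs the top dose stood clear of the lower doses and of vehicle, and the lowest dose overlapped vehicle. Cnidii libraries held 11.1, 9.4 and 11.6 CPM at 20 µg/mL, 8.58, 8.67 and 10.6 CPM at 100 µg/mL and 9.79, 11.4 and 12.5 CPM at 500 µg/mL. Astragali libraries held 11.0, 9.41 and 9.64 CPM at 20 µg/mL, 9.95, 7.56 and 8.64 CPM at 100 µg/mL and 13.1, 9.27 and 9.79 CPM at 500 µg/mL. The doses of these 2 herbs overlapped each other, and the lowest means were at 100 µg/mL. In all 6 groups of Cinnamomi and Astragali, replicate 1 had the highest CYP1A1 level of its group.

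Ordered by mean CPM, the groups ran from Samul-tang at 500 µg/mL through Palmul-tang, Sagunja-tang and Cinnamomi at that dose to Samul-tang at 100 µg/mL, Palmul-tang at 100 µg/mL and Rehmanniae at 500 µg/mL. Of these, Cinnamomi at 500 µg/mL and Samul-tang at 100 µg/mL overlapped (means 32.6 and 29.1 CPM), and the other neighbours stood apart. Below Rehmanniae at 500 µg/mL, vehicle included, nearly every group overlapped its neighbour, down to the lowest mean of 8.72 CPM with Astragali at 100 µg/mL.

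The dose trend of an extract is given as the log2 change per 5-fold dose step, estimated as the log2 difference between 500 and 20 µg/mL divided over the 2 steps, with edgeR's quasi-likelihood test and Benjamini-Hochberg adjustment over all 16167 genes (3 libraries per dose, threshold 0.05). CYP1A1 rose by 1.18 ± 0.046 (SE) per step with Samul-tang (adjusted p = 3.79e-25) and by 1.15 ± 0.047 with Sagunja-tang (adjusted p = 4.96e-24). By p-value it ranked 1 of all genes tested in both formulas. It rose by 0.85 ± 0.048 with Cinnamomi (adjusted p = 1.04e-20) and ranked 444 there, among very many changed genes. The trend with Rehmanniae was 0.39 ± 0.052 (adjusted p = 3.18e-06), where it ranked 8. With Cnidii it was 0.05 ± 0.054 (adjusted p = 0.703) and with Astragali 0.04 ± 0.057 (adjusted p = 0.872), and these missed the threshold. Of the 6 tested members, 2 had a called trend with Samul-tang (9.88% of all genes tested), 2 with Sagunja-tang (4.99%), 2 with Rehmanniae (0.674%), 3 with Cinnamomi (61.9%), 1 with Cnidii (3.22%) and 0 with Astragali (1.16%). For Cinnamomi the members' share was below that of all genes. Without replicate 1 of the Cinnamomi and Astragali groups, the CYP1A1 trend was 0.85 with Cinnamomi (adjusted p = 2.07e-18) and 0.01 with Astragali (adjusted p = 0.998). Same-numbered Astragali libraries deviated together, so replicate numbers were taken as pairing there, although no label says so. With replicate number within set as a block for all extracts, the CYP1A1 trend with Astragali was 0.05 (adjusted p = 0.705). In that fit 313 genes were called with Astragali in place of 187.

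**Figure D2:**
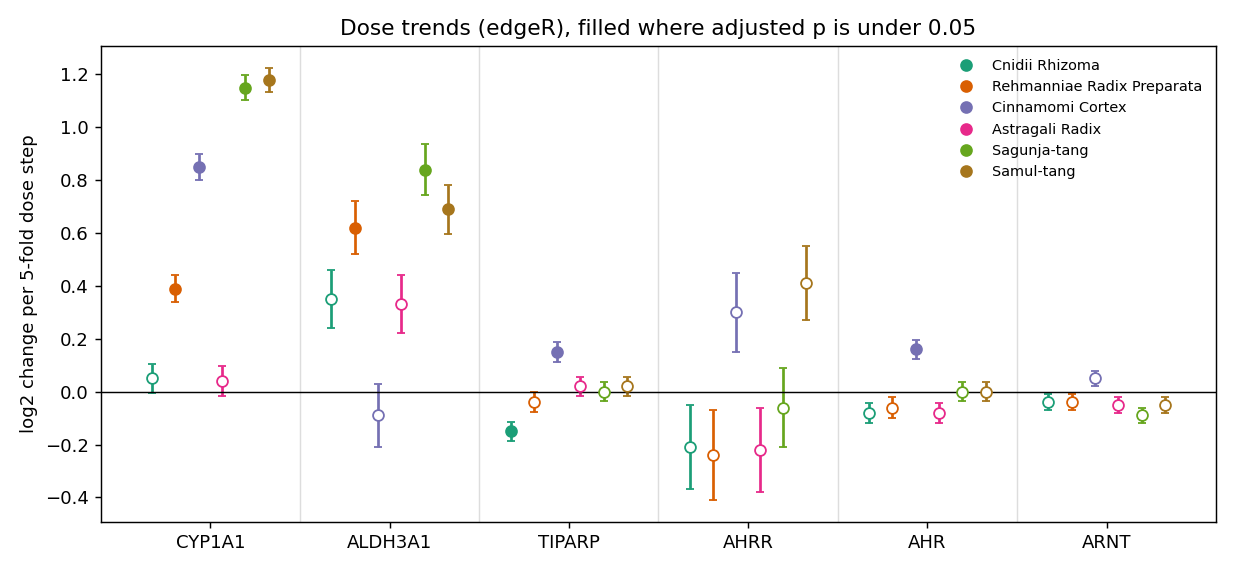
Dose trend of the 6 tested members under the 6 replicated extracts, in log2 change per 5-fold dose step; points are estimates, bars are 1 SE, and filled points passed an adjusted p of 0.05. CYP1A1 reached 1.18 with Samul-tang and 1.15 with Sagunja-tang, and ALDH3A1 0.84 with Sagunja-tang, 0.69 with Samul-tang and 0.62 with Rehmanniae.

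Against vehicle, CYP1A1 was higher in 8 of 18 comparisons and lower in 1. Log2 fold changes of Samul-tang over vehicle were 0.37 ± 0.1 at 20 µg/mL (adjusted p = 0.00658), 1.27 ± 0.097 at 100 µg/mL (adjusted p = 5.49e-13) and 2.73 ± 0.094 at 500 µg/mL (adjusted p = 2.36e-27). At 100 and 500 µg/mL it ranked 1 by p-value, with 8.08% and 13.7% of all genes called, and 20.7% were called at 20 µg/mL. Sagunja-tang gave 2.25 ± 0.094 at 500 µg/mL (adjusted p = 1.3e-23, rank 1, 12.3% of genes called) and 0.31 ± 0.1 at 100 µg/mL (adjusted p = 0.0428, 8.85% of genes called). Cinnamomi gave 1.71 ± 0.096 at 500 µg/mL (adjusted p = 6.45e-21, 62.7% of genes called) and 0.38 ± 0.1 at 100 µg/mL (adjusted p = 0.0059, 19.4% of genes called). Rehmanniae gave 0.65 ± 0.1 at 500 µg/mL (adjusted p = 1.92e-05, 7.45% of genes called). The single lower call was Astragali at 100 µg/mL, with -0.47 ± 0.11 (adjusted p = 0.0135, 2.26% of genes called). In the comparisons with no CYP1A1 call, the share of all genes called was 6.49%, 3.58% and 11.8% for Cnidii at 20, 100 and 500 µg/mL, 7.18% and 4.17% for Rehmanniae at 20 and 100 µg/mL, 7.16% for Cinnamomi at 20 µg/mL, 3.93% and 3.04% for Astragali at 20 and 500 µg/mL and 11.4% for Sagunja-tang at 20 µg/mL.

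The smaller of these calls depended on single libraries or on the fit. Samul-tang at 20 µg/mL fell short without vehicle replicate 2 (0.30, adjusted p = 0.0619), without its own replicate 2 (0.25, adjusted p = 0.135) or when no other groups were fitted (0.37, adjusted p = 0.115). Cinnamomi at 100 µg/mL fell short without vehicle replicate 2 (0.31, adjusted p = 0.0601) or its own replicate 1 (0.30, adjusted p = 0.0585). Sagunja-tang at 100 µg/mL was lost on leaving out vehicle replicate 1 or 2 or any of its own 3 libraries, and by library totals without TMM factors (0.30, adjusted p = 0.096), and Astragali at 100 µg/mL was lost without vehicle replicate 1 or 3 or its own replicate 2 or 3. The called dose trends and the calls at 500 µg/mL were kept without any 1 library.

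Extracts of the same set can be compared with each other without the vehicle. At 500 µg/mL CYP1A1 was lower with Sagunja-tang than with Samul-tang by a log2 difference of -0.49 ± 0.083 (adjusted p = 0.000439, against 0.885% of all genes called). Their dose trends differed by -0.03 ± 0.066 (95% interval -0.15 to 0.10, adjusted p = 0.912), with 0.142% of genes called for a difference. Cinnamomi was above Astragali by 1.89 at 500 µg/mL (adjusted p = 8.65e-22, 62.7% of genes called) and by 0.81 ± 0.075 per step in the trend (adjusted p = 5.17e-13, 50.9% of genes called). Cnidii was below Rehmanniae by -0.70 at 500 µg/mL (adjusted p = 3.49e-05, 0.705% of genes called), while the difference of their trends, -0.34 ± 0.076, missed the threshold (adjusted p = 0.0593, 0.068% of genes called). That trend difference passed without Rehmanniae at 500 µg/mL replicate 1 (-0.37, adjusted p = 0.0346) or Cnidii at 20 µg/mL replicate 2 (-0.38, adjusted p = 0.0407). The trend of Samul-tang exceeded that of its herb Cnidii by 1.13 ± 0.071 (adjusted p = 2.8e-16, 0.662% of genes called) and that of its herb Rehmanniae by 0.79 ± 0.07 (adjusted p = 9.78e-11, 1.66% of genes called), between different sets.

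ALDH3A1 (chr17:19737984-19748943, minus strand), an aldehyde dehydrogenase, rose with dose under Sagunja-tang, Samul-tang and Rehmanniae, and not under Cinnamomi. Vehicle libraries held 1.97, 1.99 and 1.28 CPM. Sagunja-tang libraries held 0.937, 1.19 and 1.6 CPM at 20 µg/mL, 1.94, 2.22 and 2.05 CPM at 100 µg/mL and 3.95, 4.07 and 3.83 CPM at 500 µg/mL. Samul-tang libraries held 1.57, 1.9 and 1.26 CPM at 20 µg/mL, 2.06, 2.15 and 2.03 CPM at 100 µg/mL and 3.42, 5.09 and 4.07 CPM at 500 µg/mL. In both formulas the 3 doses did not overlap each other, and vehicle overlapped the lowest dose of both and the middle dose of Sagunja-tang. Rehmanniae libraries held 1.42, 1.4 and 1.35 CPM at 20 µg/mL, 1.71, 0.962 and 1.82 CPM at 100 µg/mL and 3.33, 3.51 and 2.92 CPM at 500 µg/mL, with only the top dose clear of vehicle. The trends were 0.84 ± 0.096 per step with Sagunja-tang (adjusted p = 2.75e-08), 0.69 ± 0.093 with Samul-tang (adjusted p = 1.39e-06) and 0.62 ± 0.1 with Rehmanniae (adjusted p = 9.73e-05). By p-value it ranked 12, 28 and 24 of all genes in these 3 extracts, and each call was kept in all alternatives and on leaving out any 1 library.

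**Figure D3:**
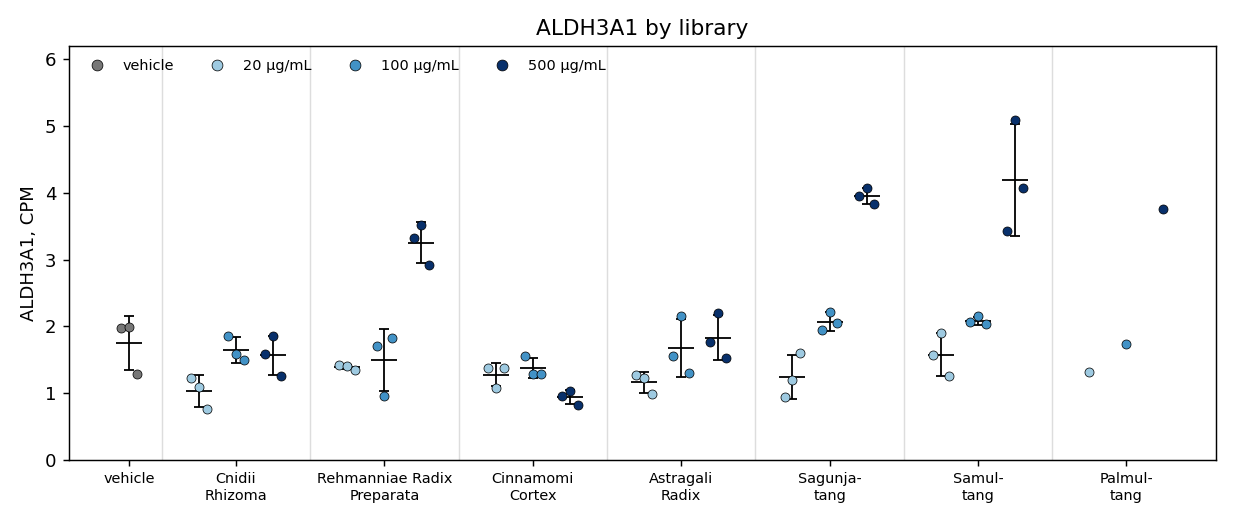
ALDH3A1 level in every library in CPM, by extract and dose in µg/mL with vehicle on the left; points are libraries, lines are means and bars are SD (n = 3, and n = 1 for Palmul-tang). At 500 µg/mL Sagunja-tang, Samul-tang and Rehmanniae libraries all lie above 2.9 CPM, and Cinnamomi libraries lie between 0.821 and 1.03 CPM.

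Palmul-tang gave ALDH3A1 levels of 1.31, 1.74 and 3.75 CPM at 20, 100 and 500 µg/mL, the last with a Poisson interval of 3.1 to 4.49 CPM. Under Cinnamomi the gene was at 1.37, 1.08 and 1.38 CPM at 20 µg/mL and 0.957, 1.03 and 0.821 CPM at 500 µg/mL, with a trend of -0.09 (adjusted p = 0.523). The trends with Cnidii (0.35, adjusted p = 0.0834) and Astragali (0.33, adjusted p = 0.166) missed the threshold. Over vehicle at 500 µg/mL, log2 fold changes were 1.25 ± 0.19 for Samul-tang (adjusted p = 3.63e-06), 1.2 ± 0.18 for Sagunja-tang (adjusted p = 7.91e-06) and 0.94 ± 0.19 for Rehmanniae (adjusted p = 0.000897). At the top dose of these 3 extracts both CYP1A1 and ALDH3A1 were higher than in vehicle. With Cinnamomi CYP1A1 was higher and ALDH3A1 had a log2 fold change of -0.61 ± 0.23 (adjusted p = 0.0171, 62.7% of genes called). That call for Cinnamomi was lost without vehicle replicate 1 or 2 or its own replicate 3, where it lay between -0.52 and -0.51, and it was -0.17 (adjusted p = 0.439) against the mean of the 6 extract groups at 20 µg/mL in place of vehicle. Cnidii at 20 µg/mL was also called lower than vehicle, by -0.75 ± 0.22 (adjusted p = 0.028, 6.49% of genes called), and lost the call in 4 of 6 fits without 1 library and when no other groups were fitted (adjusted p = 0.0641). Between herbs of 1 set at 500 µg/mL, Cnidii was below Rehmanniae by -1.0 ± 0.19 (adjusted p = 0.00246), or -0.88 without Cnidii at 500 µg/mL replicate 3 (adjusted p = 0.054), and missed the threshold when no other groups were fitted (adjusted p = 0.0678).

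CYP1A2 and CYP1B1, the other P450 enzymes of the family, were near the limit of detection. CYP1A2 (chr15:74748844-74756202, plus strand), an abundant enzyme of normal liver, had 7, 6 and 8 counts with Samul-tang at 500 µg/mL, a pooled level of 0.3 CPM (95% exact Poisson interval 0.186 to 0.459), and 6, 11 and 7 counts with Sagunja-tang at 500 µg/mL, pooled 0.287 CPM (0.184 to 0.426). The vehicle libraries had 2, 1 and 3 counts, pooled 0.0732 CPM (0.0269 to 0.159). Both intervals at 500 µg/mL lie above that of vehicle, and the count ratios to vehicle were 4.1 (exact counting interval 1.6 to 12.4) for Samul-tang and 3.91 (1.56 to 11.7) for Sagunja-tang. Palmul-tang at 500 µg/mL had 7 counts and a ratio of 3.06 (0.88 to 11.0). CYP1A2 is a close paralog of CYP1A1 and its counts were 0.41% of those of CYP1A1 overall (0.106% to 1.15% by group). How many reads were assigned from 1 gene to the other was not tested, so the CYP1A2 values are uncertain.

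When no filter was applied and 34074 genes were tested, the CYP1A2 trend with Sagunja-tang was 2.05 ± 0.5 (adjusted p = 0.00435) and that with Samul-tang 1.13 ± 0.39 (adjusted p = 0.0671). In the same fit CYP1A2 missed the threshold against vehicle at 500 µg/mL of both formulas, with 1.95 ± 0.76 for Samul-tang (adjusted p = 0.121) and 1.90 ± 0.75 for Sagunja-tang (adjusted p = 0.142). CYP1B1 (chr2:38066973-38109902, minus strand), which is expressed mostly outside the liver, had between 0 and 6 counts per library and passed no test in that fit, with trend adjusted p-values of 0.647 or above. The CYP1B1 count ratios to vehicle at 500 µg/mL ran from 0.781 (exact counting interval 0.162 to 3.29) with Samul-tang to 2.62 (0.701 to 9.81) with Palmul-tang. Sagunja-tang was at 0.978 (0.261 to 3.66). Changes of CYP1B1 within such intervals were not detectable at this depth.

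**Figure D4:**
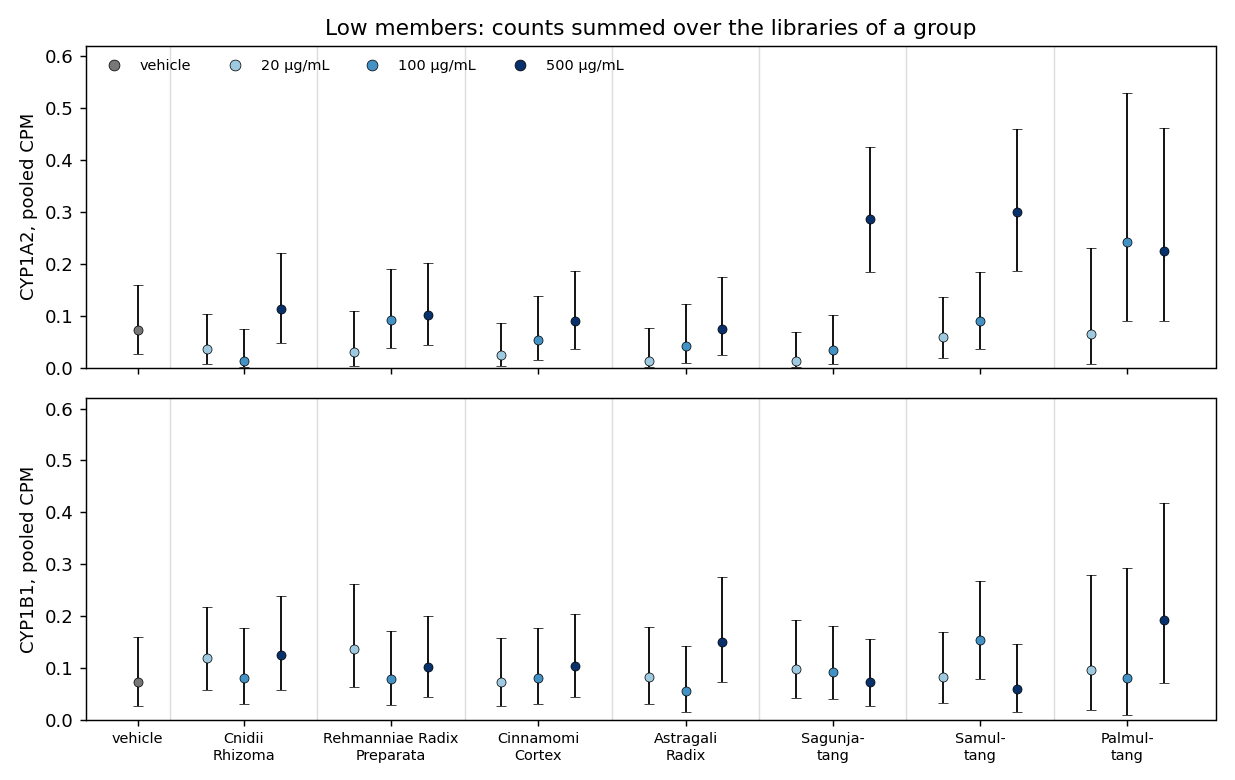
Pooled level of CYP1A2 and CYP1B1 by extract and dose in µg/mL, in CPM over the libraries of each group, with vehicle on the left; bars are 95% exact Poisson intervals. CYP1A2 at 500 µg/mL of Samul-tang was at 0.3 CPM and of Sagunja-tang at 0.287 CPM, against 0.0732 CPM in vehicle.

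Of the 2 feedback genes, TIPARP was lower with Cnidii and AHRR was low throughout. TIPARP (chr3:156673235-156706770, plus strand) encodes an ADP-ribosyltransferase of the PARP family that is induced by the receptor and inhibits it. TIPARP was at 25.5, 22.3 and 25.0 CPM in vehicle libraries, at 20.3, 22.8 and 23.0 CPM with Cnidii at 20 µg/mL and at 16.3, 18.8 and 16.9 CPM with Cnidii at 500 µg/mL. All 3 libraries at 500 µg/mL lay below those at 20 µg/mL and below vehicle. The log2 fold change over vehicle at 500 µg/mL was -0.41 ± 0.073 (adjusted p = 0.000137, 11.8% of genes called), kept in all alternatives run. Its trend with Cnidii was -0.15 ± 0.037 (adjusted p = 0.0135), which was lost without Cnidii at 500 µg/mL replicate 1 (adjusted p = 0.0545) or 3 (0.0945) or Cnidii at 20 µg/mL replicate 2 (0.0928) or 3 (0.0714). With the formulas TIPARP had trends of 0.02 ± 0.036 with Samul-tang (adjusted p = 0.721) and 0.00 ± 0.035 with Sagunja-tang (adjusted p = 0.989).

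AHRR (chr5:304176-438291, plus strand), the receptor's repressor, competes with the receptor for ARNT and overlaps PDCD6 on the same strand, so reads of the overlap could fall to either gene. It was low, at 0.143 to 1.0 CPM, or 4 to 27 counts per library, and passed none of 24 tests of trend or against vehicle. At 500 µg/mL Samul-tang libraries held 1.0, 0.755 and 0.869 CPM, with a trend of 0.41 ± 0.14 (adjusted p = 0.0578), and the vehicle mean was 0.636 CPM. This group had the highest AHRR mean of all, 0.876 CPM, and the trend passed without Samul-tang at 20 µg/mL replicate 3 (0.46, adjusted p = 0.0466). At 500 µg/mL AHRR was higher with Cinnamomi than with Astragali by 0.87 (adjusted p = 0.0138, 62.7% of genes called). The means were 0.675 CPM with Cinnamomi and 0.436 CPM with Astragali, on either side of the vehicle mean. The difference was 0.62 by library totals without TMM factors (adjusted p = 0.0848) and 0.86 without a filter (adjusted p = 0.0706). Without Astragali at 500 µg/mL replicate 3 it was 0.79 (adjusted p = 0.0608).

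**Figure D5:**
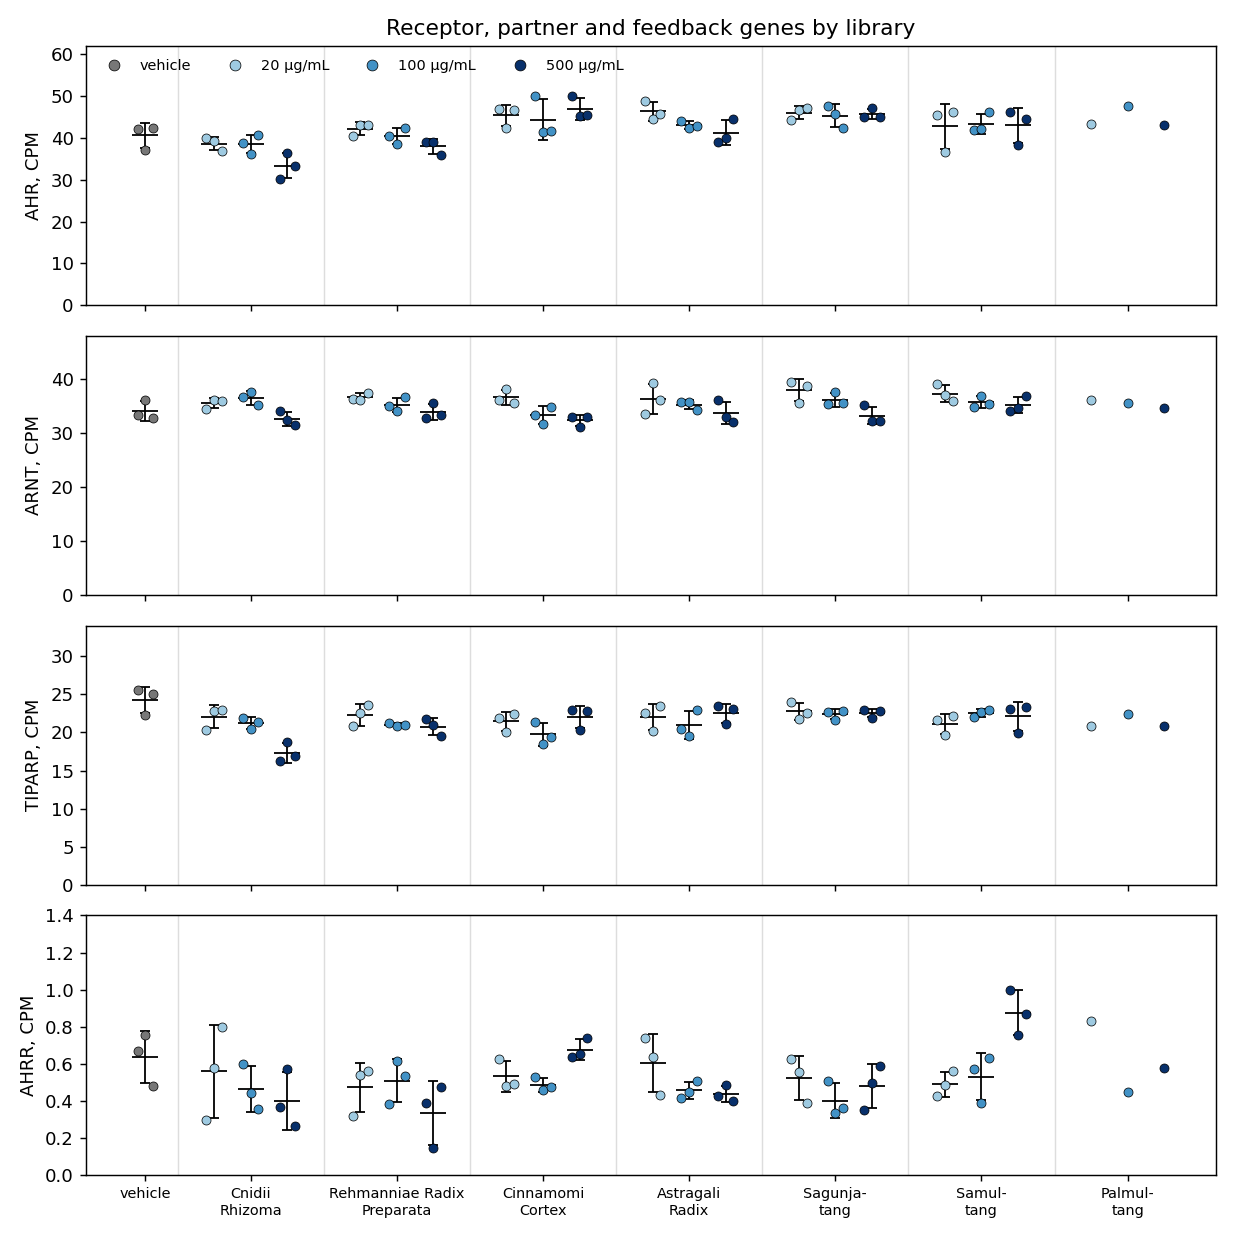
Levels of AHR, ARNT, TIPARP and AHRR in every library in CPM, by extract and dose in µg/mL with vehicle on the left; points are libraries, lines are means and bars are SD (n = 3, and n = 1 for Palmul-tang). TIPARP falls to 16.3 to 18.8 CPM with Cnidii at 500 µg/mL, against 22.3 to 25.5 CPM in vehicle.

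The receptor and its partner were expressed in all groups. Per kilobase of gene model, vehicle levels were 5.23 CPM for ARNT, 5.02 for AHR, 4.8 for TIPARP, 3.52 for CYP1A1, 0.445 for ALDH3A1, 0.0828 for AHRR, 0.0272 for CYP1A2 and 0.0124 for CYP1B1. AHR (chr7:16916359-17346152, plus strand) had no called trend under the formulas, with 0.00 ± 0.037 for both Samul-tang (adjusted p = 0.974) and Sagunja-tang (adjusted p = 1). The lowest AHR mean was with Cnidii at 500 µg/mL, 33.4 CPM against 40.6 CPM in vehicle. Its log2 fold change over vehicle, -0.21 ± 0.076, missed the threshold (adjusted p = 0.0647). It passed in 3 alternatives, among them the 6 extract groups at 20 µg/mL as comparator (-0.32, adjusted p = 0.000101), and without vehicle replicate 2 (-0.28, adjusted p = 0.0219). ARNT (chr1:150809705-150876768, minus strand) had trends of -0.05 ± 0.03 with Samul-tang (adjusted p = 0.263) and -0.09 ± 0.029 with Sagunja-tang (adjusted p = 0.0648).

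Under Cinnamomi, AHR, ARNT and TIPARP passed tests whose outcome depends on how libraries are scaled. The TMM factors of its 3 libraries at 500 µg/mL were 0.839, 0.834 and 0.863, and without such factors the median log2 fold change over vehicle of all genes at that dose was -0.30, against -0.02 with them. Changes with the factors are therefore relative to most other genes. With them, 61.9% of all genes were called in the Cinnamomi trend, and 62.7% and 19.4% against vehicle at 500 and 100 µg/mL. AHR was at 42.2, 37.2 and 42.4 CPM in vehicle libraries, at 47.0, 42.4 and 46.7 CPM with Cinnamomi at 20 µg/mL and at 50.0, 45.2 and 45.6 CPM at 500 µg/mL. With TMM its log2 fold change over vehicle at 500 µg/mL was 0.49 ± 0.074 (adjusted p = 1.14e-07) and its trend 0.16 ± 0.037 (adjusted p = 0.000198). By library totals alone these were 0.21 (adjusted p = 0.0135) and 0.02 (adjusted p = 0.577), so the first kept its call and the trend did not. By totals AHR was already 0.16 over vehicle with Cinnamomi at 20 µg/mL (adjusted p = 0.225). The AHR call at 100 µg/mL, 0.21 with TMM (adjusted p = 0.0426), was 0.13 by totals (adjusted p = 0.238) and was lost without vehicle replicate 1 or 2 or Cinnamomi replicate 1 at that dose, where it lay between 0.11 and 0.23.

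ARNT held 32.9, 31.1 and 33.0 CPM at 500 µg/mL of Cinnamomi, against 33.3, 36.2 and 32.8 CPM in vehicle. Its log2 fold change was 0.20 ± 0.06 with TMM (adjusted p = 0.00285) and -0.08 by totals (adjusted p = 0.219), so its direction rests on the scaling. The TIPARP trend with Cinnamomi was 0.15 ± 0.036 with TMM (adjusted p = 0.000267) and 0.02 by totals (adjusted p = 0.673), while at 100 µg/mL TIPARP was lower than vehicle by both, -0.22 (adjusted p = 0.0263) and -0.30 (adjusted p = 0.00186). That TIPARP call was lost without vehicle replicate 1 or 3 or Cinnamomi replicate 2 or 3 at that dose, where it lay between -0.20 and -0.18. It was also lost when no other groups were fitted (-0.22, adjusted p = 0.0623). Vehicle had the highest TIPARP mean of all groups, 24.3 CPM. Against the mean of the 6 extract groups at 20 µg/mL the TIPARP difference was -0.09 (adjusted p = 0.289). CYP1A1 kept its call, with a Cinnamomi trend of 0.71 by totals (adjusted p = 2.25e-16).

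Other xenobiotic enzymes of the receptor's gene battery were counted beside the members. Of 9 listed, 7 were tested, and those with a rising trend numbered 4 with Cnidii, 2 with Rehmanniae, 5 with Cinnamomi (2 fell), 2 with Astragali, 3 with Sagunja-tang and 4 with Samul-tang. The share of all genes called, in either direction, was 3.22%, 0.674%, 61.9%, 1.16%, 4.99% and 9.88% in that order, and the Cnidii count was 3 by library totals. The list's median trend was 0.16 with Samul-tang and 0.11 with Sagunja-tang, where the median of all genes was 0. NQO1, a quinone reductase that the stress factor NRF2 also drives, had trends of 0.31 with Sagunja-tang (adjusted p = 1.02e-12), 0.27 with Samul-tang (adjusted p = 1.02e-10), 0.25 with Rehmanniae (adjusted p = 2.21e-09), 0.47 with Cinnamomi (adjusted p = 9.77e-22) and 0.11 with Cnidii (adjusted p = 0.0064). The glutathione transferases GSTA1 and GSTA2 are near-identical paralogs whose counts are uncertain. Both fell with Cinnamomi (-0.76 and -1.03) and rose with Astragali (0.35 each), where the CYP1A1 trend missed the threshold. GSTA1 also rose with Cnidii (0.23, adjusted p = 0.000249), where the CYP1A1 trend missed the threshold too. By library totals GSTA2 rose by 0.35 with Cnidii (adjusted p = 5.36e-06) and by 0.17 with Samul-tang (adjusted p = 0.0396). CYP2S1, another P450 enzyme, rose by 0.76 with Cinnamomi (adjusted p = 1.04e-12) and passed with none of the 5 other extracts. By library totals alone, 5 of the 7 still rose and 2 fell with Cinnamomi.

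Of 14 genes for proteins that hold or assist the receptor, 3 rose and 7 fell with Cinnamomi, a share near the 61.9% of all genes called there. By library totals 1 rose and 11 fell with Cinnamomi, where 10486 of all 16167 genes were called. With the 5 other extracts 0 of the 14 passed, or 1 with Cnidii by library totals. HSP90AA1, the chaperone that holds the receptor in the cytoplasm, fell by 0.63 ± 0.033 (adjusted p = 2.98e-22), the coactivators NCOA3 and NCOA2 fell by 0.41 and 0.18, and RELA, an NF-kappaB subunit, rose by 0.27. Of 20 other reported targets, 13 were tested, and 6 rose and 2 fell with Cinnamomi, again near the 61.9% of all genes, with the hormone STC2 at 0.67, the cell-cycle inhibitor CDKN1A at 0.40, the repressor HES1 at 0.33 and the cyclin CCND1 at -0.27. By library totals 5 of these targets rose and 7 fell with Cinnamomi. In the same list 2 rose and 3 fell with Samul-tang, 1 fell with Cnidii and 1 with Rehmanniae. Of 13 enzymes of tryptophan breakdown, a source of receptor ligands, 7 were tested. With Cinnamomi 2 rose and 4 fell (0 and 6 by library totals, where KYNU was at 0.01) beside 61.9% of all genes called, AADAT at -0.40, KYAT1 at -0.33, HAAO at -0.29 and KYNU at 0.14, and with Samul-tang KYNU alone passed at 0.13 (adjusted p = 0.00732).

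ARNT also pairs with hypoxia-inducible factors, so their targets were counted beside the receptor's. With Cinnamomi all 12 hypoxia genes rose under both scalings, where 61.9% of all genes were called, with a median trend of 0.73 (0.59 by library totals), including the vasodilator peptide ADM (1.36), the carbonic anhydrase CA9 (1.35), the mitophagy receptor BNIP3 (0.64) and the glucose carrier SLC2A1 (0.54). Under the formulas, where CYP1A1 rose most, 0 of the 12 had a rising trend (1 with Samul-tang by library totals), and SLC2A1 fell by 0.14 with Samul-tang (adjusted p = 0.00471). CA9 and SLC2A1 fell by 0.47 and 0.14 with Astragali. Against vehicle at 500 µg/mL, 11 of the 12 were higher with Cnidii (11.8% of all genes called) and 9 with Rehmanniae (7.45%), although none had a called dose trend in either herb. At that dose 4 were higher with Samul-tang (13.7% of all genes called) and 3 with Sagunja-tang (12.3%). Of 15 related bHLH-PAS factors, 12 were tested, and 3 rose and 7 fell with Cinnamomi (3 and 9 by library totals) beside 61.9% of all genes, with the repressor NPAS1 at 1.41, the hypoxia factor HIF3A at -1.11, the clock gene PER2 at -0.42 and EPAS1, which encodes HIF-2alpha, at 0.32. With Samul-tang 1 rose and 2 fell, including EPAS1 at -0.12, and 1 fell with Cnidii.

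Across the means of the 19 groups in the fit, the 5 genes whose log2 levels followed CYP1A1 most closely by Pearson r were ABCC2 (0.883), an unnamed gene (ENSG00000260604, 0.880), UGT1A1 (0.876), ROBO1 (0.876) and ERMP1 (0.869). Without the Cinnamomi groups, r over the other 16 groups was 0.876, 0.897, 0.908, 0.895 and 0.915 for these genes in the same order. The points come from 1 fit and the doses of an extract share a set, so these are descriptions. With TMM-scaled totals, ABCC2, an efflux pump for conjugated compounds, averaged 397 CPM with Samul-tang at 500 µg/mL and 333 CPM in vehicle. UGT1A1, which conjugates bilirubin and drugs, averaged 21.4 and 14.3 CPM, so both genes changed far less than CYP1A1. UGT1A genes share exons, and the UGT1A1 counts are uncertain. Of the members, ALDH3A1 was the nearest to CYP1A1 at rank 109 with r = 0.675, or 0.848 without Cinnamomi, followed by AHRR at 0.492, AHR at 0.382, TIPARP at 0.326 and ARNT at -0.113.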

How the data were processed

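RNA of HepG2 cells was sequenced as 100 bp paired ends after a directional library kit, per the labels' protocols. The authors deposited expected counts per gene, and RSEM 1.3.3, STAR 2.7.3a, Trim Galore 0.6.5 and FastQC 0.11.9 with GRCh38 are named in the submitters' processing notes; the annotation release is not given in the sources used here. Of the deposited values 8.58% were not whole, and all expected counts were rounded. Of 270 columns, 210 match no sample here and were not used. GENCODE 29 names and coordinates matched 57055 IDs. Columns held no identical pair, and all 57 replicate pairs differed by more than sampling noise (chi-square per degree of freedom 3.54 to 52.2).

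CPM values are counts over the library total. The likeness to CYP1A1, with the levels of ABCC2 and UGT1A1, used totals scaled by TMM factors. Fold changes come from edgeR 4.0.16 (R 4.3.3, limma 3.58.1) with filterByExpr, TMM factors (0.834 to 1.05) and a quasi-likelihood fit of 19 groups and 57 libraries, common dispersion 0.00312, adjusted by Benjamini-Hochberg within each comparison. The 3 Palmul-tang libraries entered no test. Named were all 8 members, up to 4 genes per list with the lowest adjusted p in any trend, and the 5 genes most like CYP1A1. The members, lists and tests were chosen with earlier results of these data known.

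Same-numbered Astragali libraries deviated together (9 of 9 correlations over 0.1, from 0.121 to 0.439), so the numbers were taken as pairing there. In each other extract between 3 and 6 of the 9 correlations were over 0.1. Alternatives were RLE factors, no filter, both replicate blocks, only the compared groups, DESeq2 1.42.0, another comparator, replicate 1 of set 6 left out and each library left out. Scaling by totals, and the alternatives for differences between extracts, were added after seeing the data. The design text says that some extracts were dosed by their own inhibitory concentration, while the labels give the same 3 doses for all used here.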

Additional observations from a re-analysis of the deposited data

Results flagged for a closer look

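Comparisons of 2 extracts under the same dose trend differed for 7 results, by a test of the difference of the trends. CYP1A1 rose more per 5-fold step with Samul-tang than with Cnidii, by 1.13 on the log2 scale, and than with Rehmanniae, by 0.79, and both differences passed in every alternative and with any 1 library left out. Samul-tang has another set number than these herbs.

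Cinnamomi and Astragali, which share a set, differed in the trend of 5 members, where 50.9% of all genes were called for a difference. CYP1A1 differed by 0.81 and passed in every alternative. AHR differed by 0.24 (adjusted p = 0.000156), and by 0.11 (adjusted p = 0.088) under scaling by library totals. ALDH3A1 differed by -0.42 (adjusted p = 0.0279), with a lower trend under Cinnamomi, and missed the threshold in 5 of 12 fits without 1 library, where it lay between -0.40 and -0.33, and without replicate 1 of set 6 (-0.45, adjusted p = 0.0783). TIPARP differed by 0.13 (adjusted p = 0.026) and by 0.00 (adjusted p = 0.951) under library totals. It also missed the threshold in 5 of 12 fits without 1 library, without a filter (adjusted p = 0.091) and without replicate 1 of set 6 (adjusted p = 0.105). AHRR differed by 0.53 (adjusted p = 0.0396) and missed the threshold in 8 of 12 fits without 1 library, and in 5 other alternatives, among them DESeq2 (adjusted p = 0.0983) and library totals (0.40).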

How the results depend on the processing

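Under alternatives other than leaving out a library, 260 of 264 values of the members' dose trends kept their side of the threshold, as did 725 of 756 against vehicle and 325 of 348 between extracts; of these 4, 31 and 6 changed sign, all values that passed under neither setting. Leaving out 1 library, 318 of 324, 613 of 648 and 438 of 468 kept their side, and 12, 36 and 30 of these changed sign. Scaling by library totals turned 7 directions in Cinnamomi comparisons, 3 of values that passed under neither scaling and 4 of values that passed under at least 1 of them: ARNT in the trend (-0.09, adjusted p = 0.00435), ARNT against vehicle at 500 µg/mL (-0.08), and ARNT (-0.06) and TIPARP (-0.03) in Cinnamomi minus Astragali at 500 µg/mL. By construction this drops the factors near 0.84 of the Cinnamomi libraries, and it moved the trend calls there to 2422 higher and 8064 lower, from 4939 and 5071.

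The CYP1A1 trends kept their calls in all alternatives. With the replicate number as a replicate block they were 0.06 for Cnidii, 0.39 for Rehmanniae, 0.85 for Cinnamomi, 0.04 for Astragali, 1.16 for Sagunja-tang and 1.18 for Samul-tang. Deviations of same-numbered libraries had mean correlations of 0.254 with Astragali, 0.126 with Samul-tang and 0.112 with Cinnamomi. With the other extracts these means were between 0.053 and 0.073, so a weaker pairing outside Astragali cannot be dismissed. The Cnidii minus Rehmanniae difference passed without a filter (-0.35, adjusted p = 3.31e-05), with the within-set block (-0.33, adjusted p = 0.000372) and with DESeq2 (-0.34, adjusted p = 0.0114); the cause was not tested. CYP1A1 with Cnidii at 100 µg/mL, -0.36 (adjusted p = 0.0507), passed in 4 alternatives (adjusted p 0.00556 to 0.0451). Counts of genes with a trend moved by over 1.5 times with fewer samples in the fit (Cnidii 320 for 520, Astragali 97 for 187, Samul-tang 72 for 1597), without a filter (Rehmanniae 281 for 109, Astragali 292), with the within-set block (Astragali 313) and without replicate 1 of set 6 (Astragali 110).

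Without 1 library, counts of genes ranged from 226 to 783 for Cnidii, 69 to 108 for Rehmanniae, 9347 to 10025 for Cinnamomi, 106 to 179 for Astragali, 433 to 790 for Sagunja-tang and 152 to 2938 for Samul-tang. CYP1A1 trends ranged from 0.02 to 0.08, 0.36 to 0.43, 0.80 to 0.90, -0.02 to 0.08, 1.13 to 1.17 and 1.15 to 1.24 in that order. Trend differences ranged from 0.76 to 0.87 for Cinnamomi minus Astragali, -0.38 to -0.31 for Cnidii minus Rehmanniae and -0.09 to 0.01 for Sagunja-tang minus Samul-tang. Depth limited CYP1A2, CYP1B1 and AHRR, which had at most 27 counts in a library.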
